A study of Mus musculus with 6 samples.

Results

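The nuclear factor I (NFI) family comprises the 4 human genes NFIA, NFIB, NFIC and NFIX. They were taken by gene name from the deposited count table, which lists 58735 genes and places these 4, and no others, in its transcription factor family CTF/NFI. All 4 had enough counts to be among the 17142 genes tested. The family was selected on its measured log2 fold changes between the parental and the resistant cells, in which NFIB stands out, so every difference between the groups given here for the 4 members is a description. Their p-values are not quoted, and the count of members past the thresholds used for all genes is given once, with nothing read from it.

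NFI proteins are sequence-specific DNA-binding factors that act as homodimers or heterodimers of the family members, through a shared amino-terminal domain for DNA binding and dimerization. The carboxy-terminal parts differ between members and can activate or repress transcription. In prostate epithelium, NFI proteins are known as partners of the pioneer factor FOXA1 at prostate-specific genes.

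RNA-Seq covered 22Rv1, an established human prostate cancer cell line. The 3 parental libraries came from 22Rv1 cells given vehicle. The 3 resistant libraries came from the 22Rv1 BL-B01D1_R subline, derived from the same cells by stepwise exposure to rising concentrations of BL-B01D1, a bispecific antibody–drug conjugate against EGFR and HER3 that carries the cytotoxic payload Ed-04. The subline comes from 1 selection and nothing in the sources says that libraries of a group were separate cultures, so the spread between libraries may be technical and does not cover a repeated selection. Mouse is the organism given in the sample labels, but the sample titles name the human line 22Rv1 and the gene identifiers are human. The luminal markers KRT8, KRT18 and HOXB13 were abundant, which does not bear on the species.

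Counts on genes ranged from 13821639 to 17251491 per library. Levels are given as FPKM, counts per kilobase of listed gene length and per 1000000 counts of the scaled library size, which allows genes to be compared, or as CPM, the same without gene length. A gene was called where its FDR was under 0.05 and its log2 fold change was above 1 or under −1 in edgeR's quasi-likelihood test over all tested genes. These thresholds called 921 genes, 5.37% of those tested, with 2.53% called higher and 2.84% called lower in resistant cells.

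NFIX was the most abundant member per length. The gene lies on the forward strand of chromosome 19 (hg38, 12995608 to 13098796). In parental libraries 1, 2 and 3 its FPKM was 102, 98.1 and 104, and in resistant libraries 1, 2 and 3 it was 119, 120.5 and 120.1. All resistant libraries lay above all parental ones. Its mean went from 101 ± 2.96 FPKM (SD, n = 3) to 119.7 ± 0.967 FPKM (SD, n = 3), a log2 fold change of 0.24 (SE 0.026).

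NFIB lies on the reverse strand of chromosome 9 (hg38, 14081843 to 14398983) and is known as a developmental regulator of lung and brain and as an oncogene in small cell carcinomas. Its FPKM was 61.6, 60.65 and 61.1 in parental cells and 18.5, 18.75 and 18.8 in resistant cells. These values rest on 13561, 13001 and 10821 counts in parental and 3911, 3520 and 3895 counts in resistant libraries. The groups were far apart and the libraries within each differed little, with a coefficient of variation of CPM of 0.803% in parental and 0.918% in resistant cells. The mean went from 61.1 ± 0.491 FPKM (SD, n = 3) to 18.7 ± 0.171 FPKM (SD, n = 3). Resistant cells thus held 30.6% of the parental level, a log2 fold change of −1.71 (SE 0.027), the only one past the thresholds among the 4 members, where 5.37% of all tested genes were called. That count repeats what the family was selected on.

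NFIC, on the forward strand of chromosome 19 (hg38, 3314403 to 3469217), is a broadly expressed member known for its role in tooth root formation. Its FPKM was 8.88, 9.61 and 10.3 in parental and 10.6, 10.6 and 10.75 in resistant libraries. The groups did not overlap, although the parental libraries alone spanned more than the gap between the groups. The log2 fold change was 0.15 (SE 0.045), and the means were 9.61 ± 0.728 FPKM (SD, n = 3) and 10.6 ± 0.0906 FPKM (SD, n = 3).

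NFIA, on the forward strand of chromosome 1 (hg38, 60865259 to 61462793), is known as a switch toward the glial fate in the developing nervous system. It was the least abundant member, with an FPKM of 1.585, 1.62 and 1.875 in parental and 3.38, 2.88 and 3.00 in resistant libraries. It had 297, 296 and 283 counts in parental cells and 609, 460 and 530 counts in resistant cells. All resistant libraries were again above all parental ones. The mean went from 1.69 ± 0.158 FPKM (SD, n = 3) to 3.09 ± 0.261 FPKM (SD, n = 3), 1.82-fold higher in CPM, with a log2 fold change of 0.87 (SE 0.081) that stayed under the threshold of 1.

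**Figure D1:**
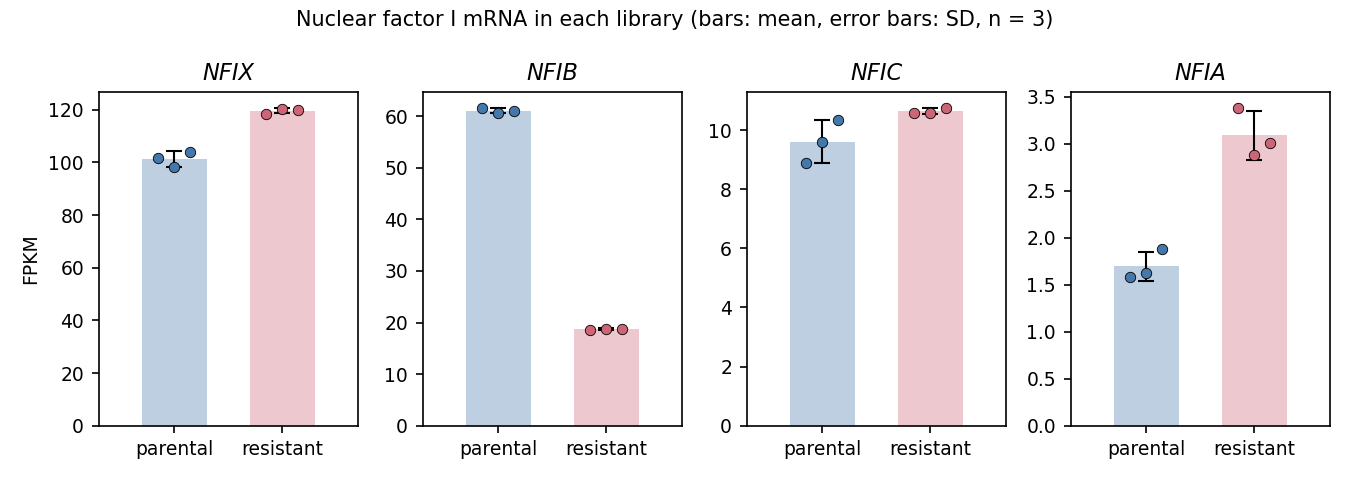
FPKM of the 4 nuclear factor I genes (one panel each, separate vertical axes starting at 0) in parental and resistant 22Rv1 libraries. Points are libraries, bars are means and error bars are SD of 3 libraries. NFIB is at 61.1 against 18.7 FPKM, whereas NFIX, NFIC and NFIA are each higher in the resistant libraries.

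The groups did not overlap for any of the 4 members, a pattern shown by 44.8% of all tested genes. In both groups the order of levels per length was NFIX, NFIB, NFIC and NFIA, and no member's libraries overlapped those of the next member in that order. In CPM, without gene length, NFIB at a mean of 780 stood above NFIX at 638 in parental cells. In resistant cells NFIB stood under NFIX, at 238 against 755. Per length, what differed was the spacing. NFIX stood at 1.66 ± 0.043 times the NFIB level (SD, n = 3) in parental cells and at 6.41 ± 0.021 times (SD, n = 3) in resistant cells. NFIA and NFIB had log2 fold changes 2.58 apart, and those of NFIB and NFIX were 1.95 apart, whereas NFIC and NFIX differed by only 0.091.

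Summed over the family, parental libraries held 173.8, 170.0 and 177 FPKM and resistant libraries held 151, 152.7 and 152.7 FPKM. The family total was therefore lower in every resistant library, at 0.876 of the parental mean. NFIB was 42.4 FPKM lower, and NFIX, NFIC and NFIA together were 20.9 FPKM higher, which equals 49.2% of the NFIB difference. This percentage rests on the listed gene lengths, and in CPM the higher members equal a smaller part of the NFIB difference. Mean CPM went from 780 to 238 for NFIB, 638 to 755 for NFIX, 94.2 to 104 for NFIC and 18.4 to 33.6 for NFIA. Without NFIB, the sum went from 113 ± 3.44 FPKM (SD, n = 3) to 133.5 ± 0.739 FPKM (SD, n = 3).

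The make-up of the family mRNA shifted toward NFIX. NFIB made up 35.2% ± 0.655 (SD, n = 3) of the summed FPKM in parental and 12.3% ± 0.043 (SD, n = 3) in resistant cells. NFIX went from 58.3% ± 0.509 to 78.7% ± 0.193 (SD, n = 3 each). NFIC went from 5.53% ± 0.376 to 6.99% ± 0.055, and NFIA from 0.974% ± 0.075 to 2.03% ± 0.184 (SD, n = 3 each). Shares are ratios within a library and do not depend on its scaling, but they do depend on the listed gene lengths, which were 12765 bases for NFIB, 10872 for NFIA, 9801 for NFIC and 6302 for NFIX. In CPM, without gene length, the family sum was 1531 ± 26.1 in parental and 1131 ± 5.84 in resistant cells (SD, n = 3 each), 0.739 of the parental mean.

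**Figure D2:**
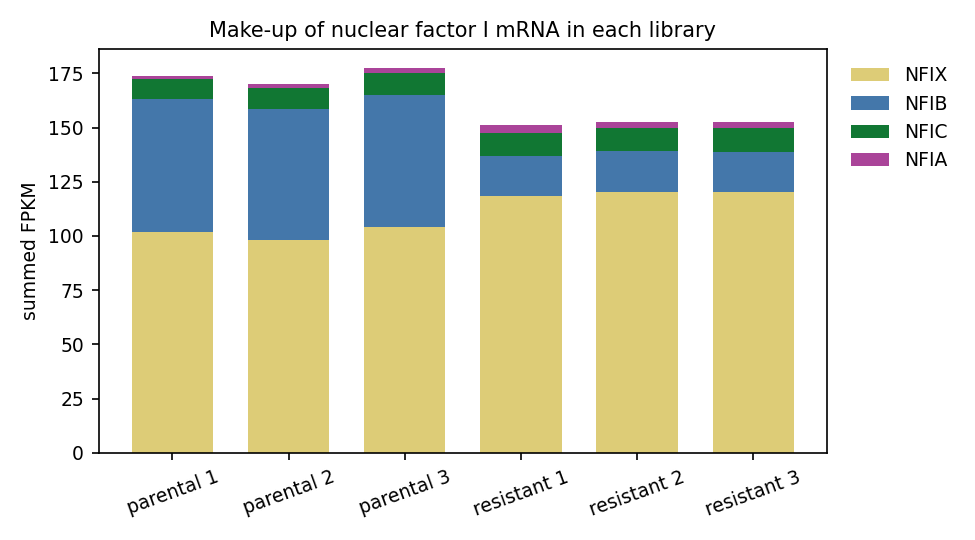
Summed FPKM of the nuclear factor I genes in each of the 6 libraries, stacked by gene. The totals are 170.0 to 177 in parental and 151 to 152.7 in resistant libraries, and the NFIB segment shrinks from 35.2% to 12.3% of the total.

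The table assigns a transcription factor family to 1194 of the tested genes. Ranked among them by mean FPKM, NFIX stood at 12 in parental and 9 in resistant cells, in the company of YBX1, ATF4 and FOXA1. NFIB stood at 25 in parental cells and at 100 in resistant cells. NFIC stood at 234 and 209, and NFIA at 839 and 637. In that set, 5.03% of genes were called, 1.84% higher and 3.18% lower. Of the 38 transcription factor genes called lower, NFIB had the highest parental FPKM, followed by YBX2 at 26.6, BHLHA15 at 22.8 and ETV4 at 8.56. The log2 fold changes of the 4 NFI genes spanned 2.58. Among the 18 families with 3 to 5 tested genes, NFI included, the median span was 0.648, and only the COE family spanned more, at 2.75. The NFI span rests on NFIB, as the other members had log2 fold changes of 0.15 to 0.87. The family was selected on these values, so nothing is read from its span or from the place of NFIB among the factors called lower.

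**Figure D3:**
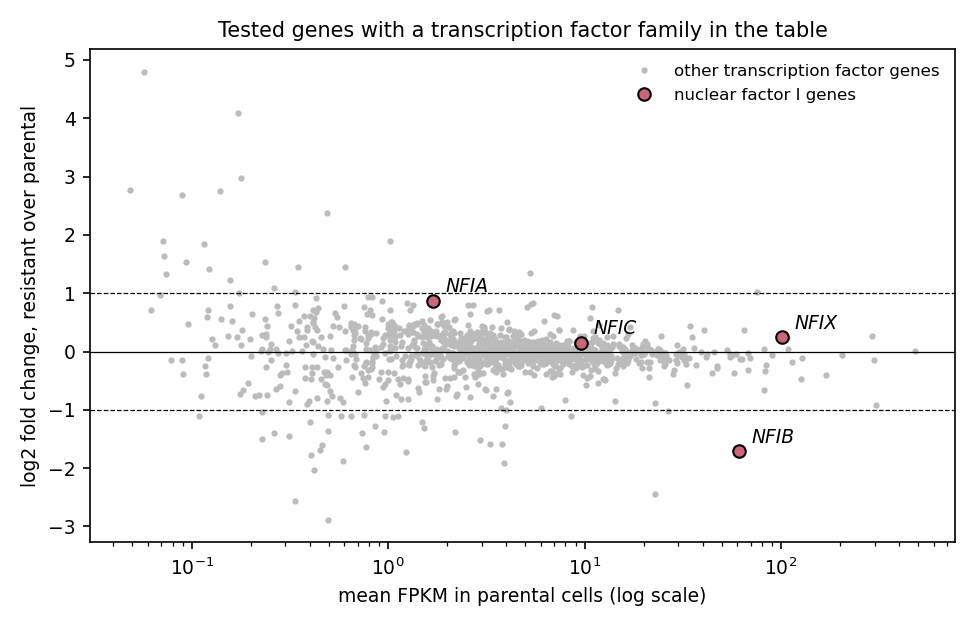
Log2 fold change (resistant over parental) against mean parental FPKM (log axis) for 1194 tested genes with a transcription factor family in the table, with the 4 nuclear factor I genes marked. NFIB, at 61.1 FPKM and −1.71, lies apart from the other abundant factors, while NFIX and NFIC lie near 0 and NFIA, at 0.87, just under the dashed line at 1.

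The counting was by gene, so transcript isoforms of the members could not be separated, and the sources do not say whether it used strand. The table lists 11 genes that overlap a member, 10 with any count. The highest count of an overlapping gene on the opposite strand was 21 in a library. NFIA-AS1 and NFIA-AS2, the antisense RNAs named for NFIA, had no more than 2 and 1 counts in any library, under the 3 counts that limit detection, so no difference was detectable. AC007787.2, inside NFIX on the same strand, was the only overlapping gene tested, with 20, 31 and 33 counts in parental and 46, 47 and 42 in resistant libraries (log2 fold change 0.69, SE 0.26, edgeR FDR 0.0359). NFIL3, a basic leucine zipper factor that carries a similar name but is no member, had 80, 109 and 89 counts in parental and 85, 61 and 64 in resistant libraries, with a log2 fold change of −0.40 (SE 0.17) that did not pass the test (edgeR FDR 0.071).

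The genes around each member were examined next. Within 1 Mb on either side of the members lay 131 tested genes, of which 2 were called higher and 3 lower, beside 2.53% and 2.84% of all tested genes. Their median log2 fold change was 0.025, against 0.0038 over all tested genes.

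Around NFIB, 5 genes were tested. None of them was called lower and none passed an FDR of 0.05 in that direction. The nearest were ZDHHC21, a palmitoyltransferase gene 212 kb away on the side of higher coordinates, and MPDZ, a multi-PDZ scaffold gene 802 kb away on the other side. Both rose slightly, with log2 fold changes of 0.17 (SE 0.049, edgeR FDR 0.00458) and 0.26 (SE 0.067, edgeR FDR 0.00189). FREM1, which encodes an extracellular matrix protein, lies 336 kb from NFIB on the side of its 5′ end, next beyond ZDHHC21 among the tested genes. Its counts were 5, 5 and 3 in parental cells against 263, 264 and 255 in resistant cells. The resistant libraries were thus far above the parental ones in FREM1 while they were far under them in NFIB. The FREM1 log2 fold change was 5.89 (SE 0.22, edgeR FDR 8.87e-25). TTC39B, 765 kb away, did not pass (log2 fold change 0.0048, SE 0.11, edgeR FDR 0.98).

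None of the 6 genes tested around NFIA was called. The nearest was TM2D1, 218 kb away, with a log2 fold change of 0.24 (SE 0.081, edgeR FDR 0.0153). On the other side the nearest was CYP2J2, at 938.5 kb, with 10 to 25 counts per library and an FDR of 0.16 in edgeR's test. Around NFIC, where 60 genes were tested, TLE6 was called higher (log2 fold change 1.04, SE 0.18) and GIPC3 and FSD1 were called lower (−1.23, SE 0.090 and −1.74, SE 0.27). Its nearest tested neighbors, SMIM24 at 4.77 kb and CELF5 at 17.3 kb, did not pass the test (edgeR FDR 0.381 and 0.0639). Around NFIX, 1 of 60 tested genes was called, IL27RA, which fell by 1.60 on the log2 scale (SE 0.24). The nearest, the tRNA methyltransferase gene TRMT1 at 6.11 kb, rose with a log2 fold change of 0.33 (SE 0.060, edgeR FDR 1.95e-05). DAND5, at 20.8 kb on the other side, did not pass (edgeR FDR 0.618).

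**Figure D4:**
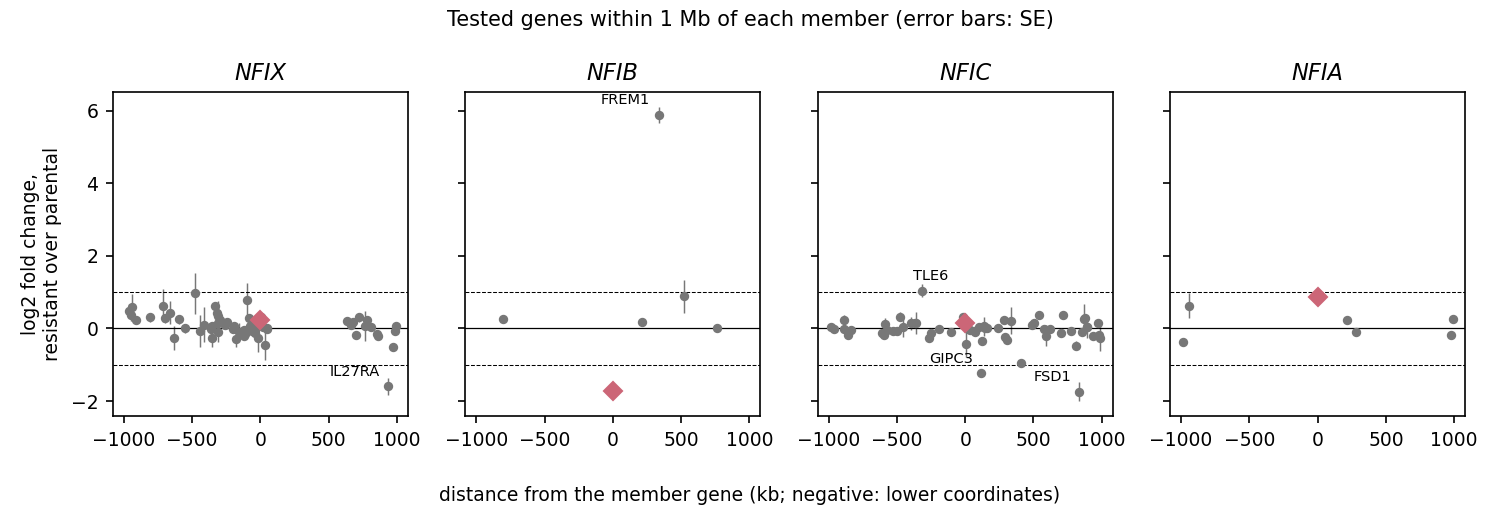
Log2 fold change (resistant over parental, error bars SE) of tested genes against their distance in kb from each member, with the member itself as a diamond at 0 and called genes named. Near NFIB, at −1.71, no tested gene is called lower, and FREM1 at 336 kb stands at 5.89.

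Factors known to work with NFI proteins or to act at the same regulatory sites formed a list of 12 genes, 11 of them tested. This and the other gene lists were chosen with earlier results of these data known, so their counts are a description. None was called, but 8 passed an FDR of 0.05, all of them lower in resistant cells, beside 18.4% of all tested genes that passed in that direction. That share is over genes of all expression levels and is not matched to the levels of this list. The median log2 fold change was −0.19. HOXB13, the homeobox factor of the prostate lineage, fell by 0.48 on the log2 scale (SE 0.029, edgeR FDR 2.29e-17), from 126.5 ± 1.21 to 90.8 ± 3.25 FPKM (SD, n = 3 each). FOXA1 fell by 0.17 (SE 0.029, edgeR FDR 4.32e-06), from 114 ± 3.17 to 101 ± 2.903 FPKM (SD, n = 3 each). The abundant cold shock factor YBX1 did not pass the test (edgeR FDR 0.798). The others that passed, named here after their values were seen, were GATA2, SOX9, SMAD3, SMAD4, SKI and SKIL, and FOXA2 had no count in any library.

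Androgen-regulated prostate genes, at several of which NFI proteins have been studied, showed the opposite direction. All 8 tested genes of this list of 10 passed an FDR of 0.05 and were higher in resistant cells, beside 17.1% of all tested genes that passed in that direction. Their median log2 fold change was 0.78. This list too was chosen with earlier results known, so no excess over that share is read from it. PLPP1, a lipid phosphatase gene, was the only one called. It rose from 11.0 ± 0.419 to 25.8 ± 1.55 FPKM (SD, n = 3 each), a log2 fold change of 1.22 (SE 0.068, edgeR FDR 1.14e-18). FKBP5, a cochaperone gene, rose by 0.90 (SE 0.029), the metalloreductase gene STEAP2 by 0.77 (SE 0.027) and SLC45A3 by 0.16 (SE 0.039). TMPRSS2, KLK2 and KLK3 also rose, with log2 fold changes of 0.79 (SE 0.086), 0.70 (SE 0.092) and 0.91 (SE 0.21). TRPM8 had too few counts to be tested, and the table does not use the symbol ACP3.

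Genes described as regulated by NFI proteins in other tissues formed a list of 23, of which 13 were tested. Those without enough counts included CKM, MYH7, DSPP and WNT7A, genes of muscle, tooth and brain. At an FDR of 0.05, 3 of the 13 rose and 5 fell, beside 17.1% and 18.4% of all tested genes, with a median log2 fold change of −0.14. L1CAM, a neural cell adhesion gene, fell by 1.40 on the log2 scale (SE 0.099, edgeR FDR 2.61e-15), from 3.83 ± 0.232 to 1.45 ± 0.266 FPKM (SD, n = 3 each). EDN2, which encodes endothelin 2 and is known to be repressed by NFIB in hair follicle stem cells, rose by 1.096 (SE 0.14, edgeR FDR 2.21e-08), from 2.98 ± 0.385 to 6.42 ± 0.474 FPKM (SD, n = 3 each). CDKN1A, the p21 cell cycle inhibitor gene, rose by 0.79 (SE 0.051), and CDH1, E-cadherin, rose by 0.24 (SE 0.028). EZH2, the Polycomb methyltransferase gene known as a target of NFIB repression, fell by 0.14 (SE 0.037, edgeR FDR 0.00222), and HES1, a Notch target gene, did not pass the test (log2 fold change 0.096, SE 0.068, edgeR FDR 0.289). The list as a whole had no single direction.

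**Figure D5:**
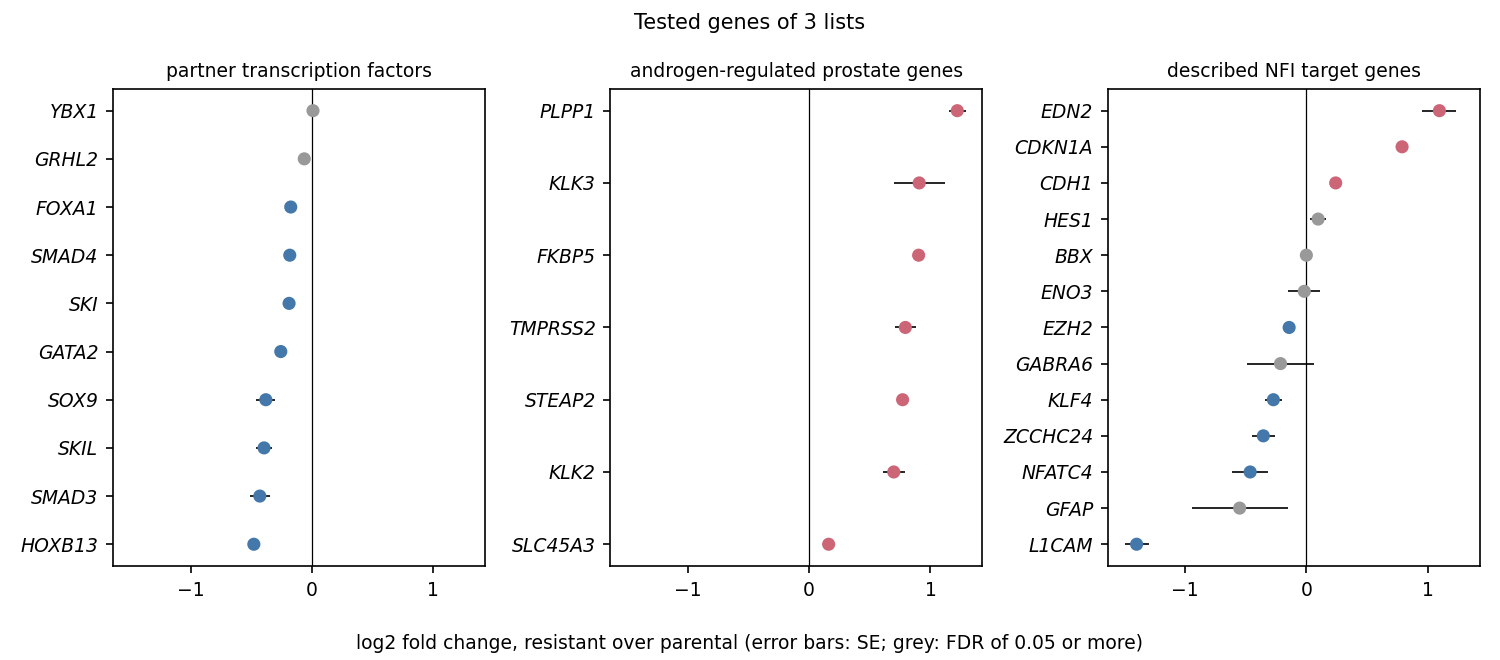
Log2 fold changes (resistant over parental, error bars SE) of tested genes of 3 lists (1 gene of each of the first 2 lists is not shown), red for higher and blue for lower at an FDR of less than 0.05 and grey otherwise. Of the partner factors shown, 8 are lower, all androgen-regulated genes shown are higher, and the described target genes lie on both sides of 0.

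Nuclear factor Y, a CCAAT-binding factor of unrelated structure, was listed beside the NFI genes. The count table places NFYA, NFYB and NFYC each in a transcription factor family of its own. Their values therefore say nothing about how members of a family differ. NFYA and NFYB fell slightly (log2 fold changes −0.15, SE 0.044, and −0.24, SE 0.063) and NFYC did not pass the test (0.081, SE 0.060, edgeR FDR 0.323).

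Markers of other cell types were checked because NFI genes are also expressed in basal, stromal and neuroendocrine cells. All libraries came from an established cell line in culture, so the markers are read as genes expressed in that line. In bulk RNA, fewer cells expressing a gene and less of its RNA per cell cannot be told apart. Of the 5 luminal markers, none was called. At an FDR of 0.05, 2 were higher and 2, KRT18 and HOXB13, were lower, beside 17.1% and 18.4% of all tested genes. KRT8, with a log2 fold change of 0.067 (SE 0.026), passed at an edgeR FDR of 0.0423, and 1 marker in place of 2 was higher when any 1 library other than resistant replicate 1 was left out. The summed FPKM of the luminal markers was 592 to 600.0 in parental and 612 to 627 in resistant libraries. The 4 basal markers were at or near 0 in every library, with KRT5 at 0 throughout and a summed FPKM of at most 0.191. The 5 fibroblast and stroma markers summed to between 33.1 and 34.96 FPKM in parental and between 10.3 and 11.8 FPKM in resistant libraries. That sum was nearly all LUM, the gene of the proteoglycan lumican, at 33.0, 31.1 and 31.7 FPKM in parental and 8.64, 9.97 and 10.1 FPKM in resistant libraries (log2 fold change −1.74, SE 0.057, edgeR FDR 1.11e-26), whereas COL1A2 had at most 2 counts in a library. The other stroma markers did not share the size of that fall. COL1A1 had a log2 fold change of −0.28 (SE 0.10, edgeR FDR 0.0348), and DCN (−0.46, SE 0.32, edgeR FDR 0.286) and ACTA2 (0.15, SE 0.35, edgeR FDR 0.783) did not pass the test. The 5 neuroendocrine markers summed to between 31.3 and 33.9 FPKM in parental and between 22.1 and 23.7 FPKM in resistant libraries. CHGA, chromogranin A, fell by 2.27 on the log2 scale (SE 0.087, edgeR FDR 2.49e-24), while SYP, synaptophysin, did not pass (edgeR FDR 0.531) and INSM1 and NCAM1 had at most 5 counts in a library. LUM and CHGA thus moved in the same direction as NFIB, and a link between these differences was not tested.

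The genes most like each member were sought among 13514 genes with a mean of at least 1 FPKM, by the root mean square difference between log2 CPM profiles centered on their means over the 6 libraries. Because the groups lie apart, this likeness mainly reflects the size of the difference between them. Of the 5 genes closest to NFIB, 4 were SLC22A3 (0.042), an organic cation transporter gene, ALB (0.043), which encodes serum albumin, PSCA (0.063), which encodes a prostate surface antigen, and LUM (0.068). ALB was abundant and fell from 91.8 ± 2.28 to 26.8 ± 0.645 FPKM (SD, n = 3 each). These 4 genes lie on chromosomes other than chromosome 9.

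The genes closest to NFIA were C9orf106 (0.067), TMPRSS2 (0.071), TMC4 (0.080), ENC1 (0.080) and ST6GALNAC5 (0.082). TMPRSS2, the androgen-regulated serine protease gene, went from 2.83 ± 0.222 to 4.87 ± 0.560 FPKM (SD, n = 3 each). Those closest to NFIC were AGFG2 (0.023), PHTF1 (0.023), HSPA2 (0.023), FAAP20 (0.025) and ARRB2 (0.026). Those closest to NFIX were the ribosomal protein gene RPS27 (0.012), HSPH1 (0.015), ANAPC16 (0.015), ANGPTL4 (0.018) and GPX4 (0.018), and their log2 fold changes lay between 0.24 and 0.26. No gene stood among the closest 5 for more than 1 member.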

How the data were processed

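RNA-Seq was analysed for 3 parental and 3 resistant 22Rv1 libraries, grouped by the sample titles. Per the labels and the methods, the authors trimmed reads with fastp, mapped them to hg38 with HISAT2 2.0.5, counted them per gene with featureCounts 1.5.0-p3 and deposited raw counts with gene positions and lengths in 1 table. The annotation release, strand setting and any filter on low counts are not given in the sources used here. Gene length in bases is listed by the authors as another quantity in that table. No human sequence was used here, so none is printed.

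The deposited counts were reduced to genes passing filterByExpr and scaled with TMM. Resistant and parental libraries were compared in edgeR 4.0.16 (R 4.3.3) by the quasi-likelihood test with Benjamini-Hochberg adjustment over 17142 genes. SE is the size of the log2 fold change divided by the square root of F. The FPKM used here were computed from counts and listed lengths. The authors state that they computed FPKM and used limma for differential expression. Alternatives were limma-voom and limma on log2(FPKM + 1) (limma 3.58.1), DESeq2 1.42.0, 3 other scalings, 2 other filters, protein-coding genes only, the replicate number as a block, and each library left out in turn. The fits, other than those with a library left out, were also run on simulated counts to check the code. No result given here rests on the outcome.

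Members and gene lists were chosen with earlier results of these data known. Named genes were the members, genes named after them, NFIL3, called list genes and the 4 most abundant others per list, called and nearest neighbors within 1 Mb, and the 5 genes most like each member. Total counts limit precision, and 3 counts correspond to 0.174 to 0.216 CPM, which covers counting error only. The number of per-sample columns not used was 0. Results for some genes of these lists are left out of the text.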

Additional observations from a re-analysis of the deposited data

How the results depend on the processing

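As a description, over the 10 other fits the log2 fold change ranged from −1.73 to −1.66 for NFIB, 0.60 to 0.89 for NFIA, 0.13 to 0.16 for NFIC and 0.23 to 0.26 for NFIX, and with 1 library left out from −1.72 to −1.701, 0.80 to 0.95, 0.096 to 0.20 and 0.22 to 0.26. The ratio of summed FPKM, 0.876, was 0.739 for summed CPM, an alternative chosen after seeing the data that gives long genes more weight by construction. It was 0.867 to 0.885 with 1 library left out. Of the list and neighbor genes, 10 were called, 4 with limma on log2(FPKM + 1), and 9 to 11 with 1 library left out. Of all genes, 921 were called, 180 with limma on log2(FPKM + 1) and 535 with at least 10 counts in every library. The former fit adds 1 to every FPKM, and the latter leaves out genes with fewer than 10 counts in any library. How far these settings account for the lower counts of called genes was not tested. The counts of partner factors that fell, 8, and of androgen-regulated genes that rose, 8, were the same under all alternatives run. Other counts at an FDR of 0.05 moved by 1 gene at most: described target genes that fell, from 5 to 4, nuclear factor Y genes that fell, from 2 to 1 without parental replicate 2 or resistant replicate 1, stroma markers that fell, from 2 to 1 without parental replicate 2, resistant replicate 1 or resistant replicate 2, with no filter, with DESeq2 and on FPKM, and luminal markers that rose, from 2 to 1 without any 1 library other than resistant replicate 1, with no filter, with library size alone and on FPKM. With the replicate number as a block, the log2 fold changes were −1.71 (NFIB), 0.87 (NFIA), 0.15 (NFIC) and 0.24 (NFIX), with 10 list and neighbor genes and 889 genes in all called. Same-numbered libraries did not deviate together (correlation across genes −0.020 to −0.0081), and no library correlated best with its own number, so the number was not used as a pairing.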
